A study of Mus musculus with 12 samples.

Results

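Tetraspanins were examined in RNA-seq of mouse hepatocytes, the parenchymal cells of the liver, that were sorted by a fluorescent reporter of the senescence gene p16. The 9 genes Cd63, Cd9, Cd81, Cd82, Cd151, Tspan3, Tspan4, Tspan8 and Tspan31 were picked from the tetraspanin family with measurements of these libraries already known, and were found by symbol in a table of 54839 features. The other 22 family genes in the table were taken by family name alone. Male heterozygous p16-Tom mice carried a tamoxifen-inducible Cre driven by p16 and a floxed tdTomato reporter, so that tamoxifen, which every group received, marked cells in which p16 was active. Mice were given repeated injections of the hepatotoxin CCl4 in corn oil (CCl4) or corn oil alone (oil), and tdTomato-positive (Tom+) and tdTomato-negative (Tom-) hepatocytes were sorted. There were 4 groups (Tom- oil, Tom+ oil, Tom- CCl4 and Tom+ CCl4) of 3 libraries each, and the ages of the mice are not given in the sources used here. The labels do not tie a library to a mouse, so the tests measure the spread between libraries. The reporter marks cells in which the Cre was active at the time of tamoxifen, and not p16 expression at the time of the sort.

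Tetraspanins are small membrane proteins that cross the membrane 4 times and gather integrins, immunoglobulin-like proteins and proteases into membrane patches. CD63 sits mainly in late endosomes, lysosomes and the vesicles inside them. CD9 and CD81 sit mainly at the cell surface, and all of CD9, CD63 and CD81 are widely used as marks of extracellular vesicles. In the liver, CD81 is known as an entry receptor of hepatitis C virus on human hepatocytes.

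The libraries held 37568584 to 75331424 counts, so that 3 counts, taken as the floor of detection, were worth 0.0369 to 0.0829 CPM (counts scaled to a common depth with TMM factors), and such floors cover counting error only. Hepatocyte markers (6 genes, among them Alb) summed to 89010 to 133900 CPM in the 12 libraries. In CCl4 the reporter separated the fractions, with 119.7 to 263.1 CPM in Tom- and 1316 to 1369 CPM in Tom+. In oil, the library labelled Tom- oil replicate 1 held 1794 CPM of reporter and the library labelled Tom+ oil replicate 2 held 135.2 CPM, against the labels of both, so any direction between the fractions in oil rests on labels that the reporter contradicts. Calls of tetraspanin genes that use oil are therefore given with and without these 2 libraries where they differ. Genes of other lists were not read without them, and neither were fits that pair libraries by number.

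The promoter windows of Cd63 and Cd9, the 2 genes that rose with CCl4, and of Cd81, an abundant gene that did not, are shown to let their sequences be compared. Each window runs from 250 bases before to 50 bases after the first start listed by RefSeq (GRCm38.p6), 5′ to 3′ on the strand of the gene. They lie at chr10:128909095-128909394 (plus strand) for Cd63, chr6:125494711-125495010 (minus strand) for Cd9 and chr7:143052500-143052799 (plus strand) for Cd81. The Cd63 window lies inside the span of the gene in the files, which begins at an upstream start. Both strands were searched for the TATA box (TATAAA), the CCAAT box, the GC box (GGGCGG), the AP-1 motif (TGANTCA) and the E-box (CACGTG), and capitals mark the matches.
Cd63: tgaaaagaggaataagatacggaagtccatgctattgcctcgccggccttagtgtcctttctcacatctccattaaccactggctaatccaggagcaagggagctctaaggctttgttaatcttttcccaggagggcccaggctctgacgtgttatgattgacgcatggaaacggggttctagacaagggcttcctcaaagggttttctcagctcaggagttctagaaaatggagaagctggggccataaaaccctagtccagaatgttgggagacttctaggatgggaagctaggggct
Cd9: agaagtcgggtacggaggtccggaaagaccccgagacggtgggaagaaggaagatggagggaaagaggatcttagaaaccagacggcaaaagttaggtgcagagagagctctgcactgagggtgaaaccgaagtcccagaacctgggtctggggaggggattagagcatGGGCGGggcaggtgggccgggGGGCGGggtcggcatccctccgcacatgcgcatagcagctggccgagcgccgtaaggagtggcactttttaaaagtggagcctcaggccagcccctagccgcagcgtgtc
Cd81: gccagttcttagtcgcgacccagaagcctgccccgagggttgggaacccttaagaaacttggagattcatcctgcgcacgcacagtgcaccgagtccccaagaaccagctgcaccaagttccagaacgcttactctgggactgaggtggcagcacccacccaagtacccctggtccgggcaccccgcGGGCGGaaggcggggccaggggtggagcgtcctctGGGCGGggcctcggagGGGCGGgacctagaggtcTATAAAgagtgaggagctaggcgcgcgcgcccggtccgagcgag
The Cd63 window held no match to these 5 motifs, which says only that these letters are not in this window. The Cd9 window held 2 GC boxes, and the Cd81 window held 3 GC boxes and 1 TATA box, the latter just after the listed start. GC boxes stood in the windows of 5 of the 9 genes (Cd9, Cd81, Cd82, Cd151 and Tspan4) and in 35.9% of 27025 promoter windows of the same length. Neither AP-1 nor E-box letters were found in any of the 9 windows, and they were found in 7.93% and 7.24% of all windows. The Cd63 window had a GC content of 49.3% with 6 CG pairs, beside 61.3% with 18 for Cd9 and 65.7% with 23 for Cd81, and the median over all windows was 52.7% with 7 CG pairs. Since the Cd63 window held none of the 5 motifs, none could be shared by the 2 genes that rose.

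Expression levels differed widely among the 9 genes, compared as TPM, in which counts are scaled to gene length and depth. Tspan31, a little-studied member whose gene lies beside Cdk4, averaged 239.4 TPM over the 12 libraries and made up 34.05% of the summed TPM of the family. Cd81 followed with 169.8 TPM, and Tspan31 exceeded it in 12 of 12 libraries. Cd82 (44.6 TPM), known as a suppressor of metastasis, and Tspan4 (41.88 TPM), known from migrasomes, the vesicles left behind by migrating cells, could not be ordered, since Cd82 was higher in 7 of 12 libraries. Cd151 (28.23 TPM), which binds laminin-binding integrins, was below Tspan4 in 12 of 12 libraries and above Cd9 (20.26 TPM) in 9 of 12. Cd63 averaged 3.073 TPM and Tspan3 0.6714 TPM, and Cd63 was the higher of the 2 in 6 of 12 libraries, which were the 6 from CCl4. Tspan8, known from gut and pancreatic epithelium, was at 0 in 9 of 12 libraries, with 2 counts in the library labelled Tom- oil replicate 1, 4 in Tom- CCl4 replicate 1 and 2 in Tom+ CCl4 replicate 2. It was the only one of the 9 genes that failed the filter on low counts, so it has no fold change, and any difference in it was not detectable at this depth.

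**Figure D1:**
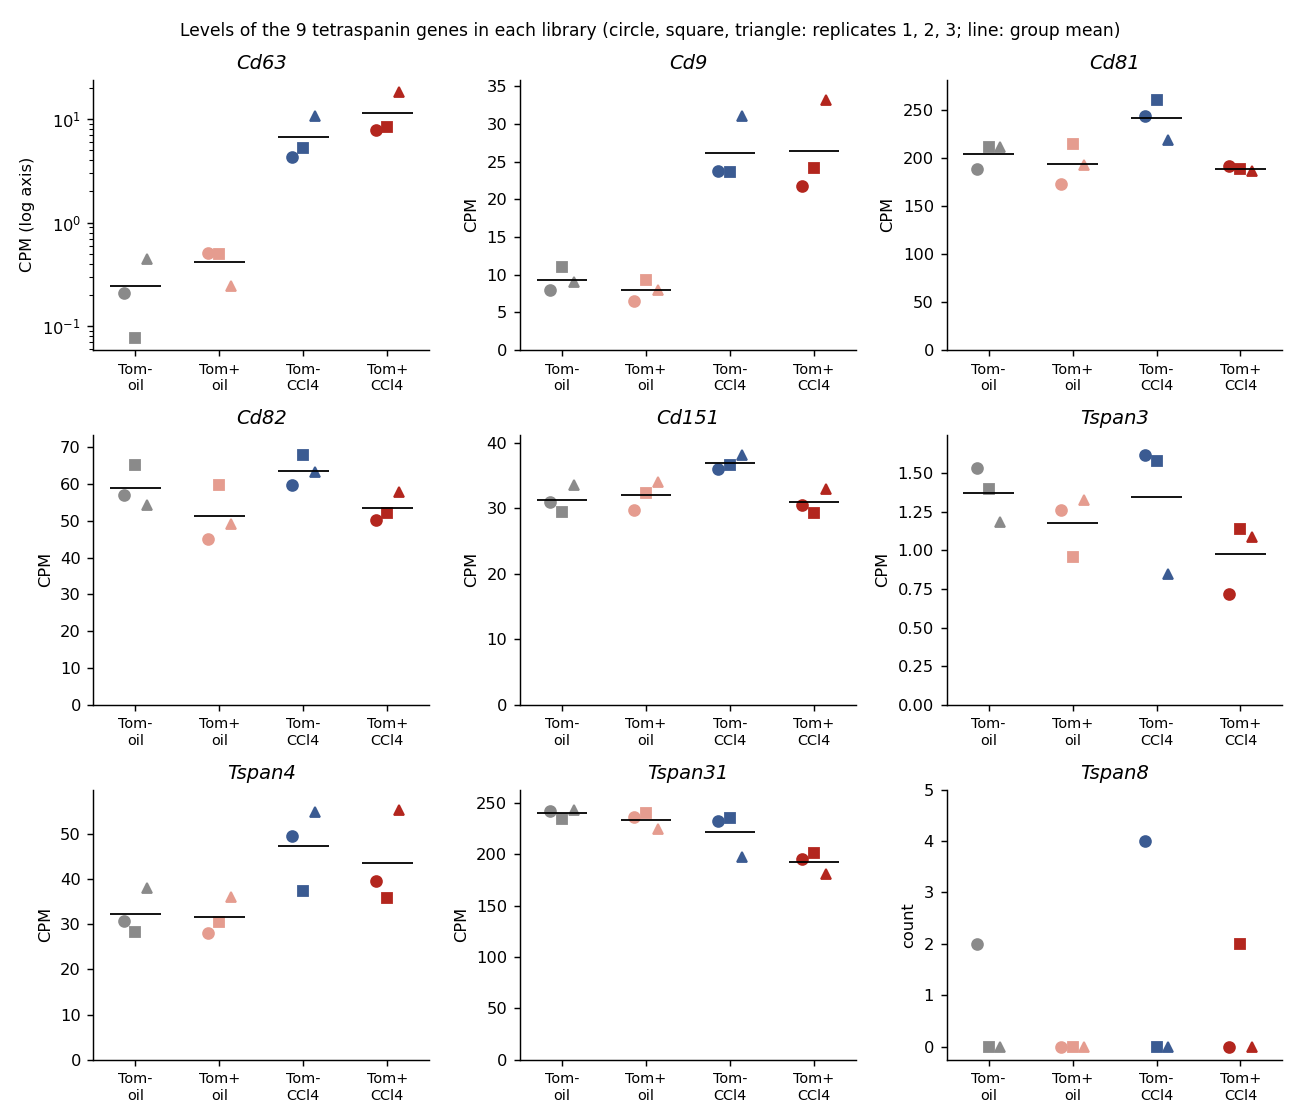
Levels of the 9 tetraspanin genes in each library as CPM (Tspan8 as counts, Cd63 on a log axis), with circle, square and triangle for replicates 1, 2 and 3 and a line at the group mean. The 6 CCl4 libraries lie above the 6 oil libraries for Cd63 and Cd9, and the other genes overlap between oil and CCl4.

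To see which tetraspanins changed with CCl4, the CCl4 and oil libraries were compared within each fraction by edgeR's quasi-likelihood test over 17121 genes, and a gene was called when its adjusted p was under 0.05 and its log2 fold change (log2FC) beyond 0.75. Cd63 and Cd9 were higher in CCl4 in both fractions, and the other 6 genes tested were not called in either. Among all genes, 7.92% were called in Tom- and 5.24% in Tom+. Since the 9 genes were chosen with such values known, calls and fold changes are a description here, and no p-value of a single one of them is given.

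Cd63 was close to the floor in oil and was well above it in CCl4. The files held 8, 4 and 22 Cd63 counts in the Tom- oil libraries and 35, 26 and 10 in the Tom+ oil libraries. They held 171, 188 and 506 in Tom- CCl4 and 631, 379 and 871 in Tom+ CCl4. Normalized for depth, these were 0.211, 0.0775 and 0.45 CPM in Tom- oil, 0.506, 0.496 and 0.245 CPM in Tom+ oil, 4.32, 5.2 and 10.7 CPM in Tom- CCl4, and 7.77, 8.27 and 18.2 CPM in Tom+ CCl4. The lowest CCl4 library therefore lay above the highest oil library, and replicate 3 was the highest of both CCl4 groups. The log2FC was 4.77 ± 0.61 (SE, n = 3 libraries per group) in Tom-, a 27.2-fold difference, and 4.73 ± 0.57 in Tom+, a 26.5-fold difference. Without the 2 oil libraries whose reporter went against the label, the log2FC was 4.69 in Tom- and 4.85 in Tom+. Leaving out 1 library at a time gave 4.26 to 5.61 in Tom- and 4.23 to 4.94 in Tom+; the highest came without Tom- oil replicate 3, the oil library of its group with the most Cd63 counts.

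Cd63 (chr10:128900989-128912822, plus strand, mm10) has a transcribed processed pseudogene, Cd63-ps, named here after its values were seen. Of the 50-base words in Cd63 transcripts, 9.7% also occurred in those of Cd63-ps, so some Cd63 reads could be assigned to either. Cd63-ps had 0 counts in 5 of the 6 oil libraries and 5 in Tom+ oil replicate 1. It had 19, 16 and 29 counts in Tom- CCl4 and 56, 39 and 77 in Tom+ CCl4. Adding both features gave 4 to 40 counts in the oil libraries and 190 to 948 in the CCl4 libraries, so the oil and CCl4 libraries did not overlap with both features summed.

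Cd9 rose about 3-fold. It was at 7.99, 10.99 and 9.07 CPM in Tom- oil and at 6.53, 9.31 and 7.91 CPM in Tom+ oil. After CCl4 it was at 23.7, 23.7 and 31.0 CPM in Tom- and at 21.8, 24.2 and 33.2 CPM in Tom+. No CCl4 library reached down to the oil libraries, and replicate 3 was again the highest of both CCl4 groups. The log2FC was 1.48 ± 0.19 (2.79-fold) in Tom- and 1.74 ± 0.19 (3.34-fold) in Tom+. Without the 2 doubtful oil libraries it was 1.39 and 1.88.

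For Cd63 and Cd9, and for none of the other 6 genes tested, the 6 CCl4 libraries lay apart from the 6 oil libraries, on the CPM scale and on the TPM scale. Such separation was seen for 7.65% of all genes on the CPM scale. Counting 3 libraries against 3, 4 of the 8 genes tested (Cd63, Cd9, Cd81 and Cd151) did not overlap between CCl4 and oil in Tom-, where 36.0% of all genes did not, and 3 (Cd63, Cd9 and Tspan31) did not overlap in Tom+, where 29.3% of all genes did not. These counts are on the CPM scale, and beyond Cd63 and Cd9 they changed with the scale. In TPM, Tspan31 (lower in CCl4) did not overlap in Tom- while Cd81 and Cd151 did, and Cd151 and Tspan4 (higher in CCl4) did not overlap in Tom+ while Tspan31 did. The median log2FC of the 8 genes was 0.24 in Tom- and 0.01 in Tom+, beside 0.00 to 0.01 for all genes tested.

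Markers of other liver cells rose with CCl4 as well, and they are given here because Cd63 and Cd9 are not restricted to hepatocytes. In bulk samples, fewer cells of a type and less RNA per cell cannot be told apart. Stellate cell markers (7 genes, among them Lrat, Reln and Col3a1, none at 0 in any library) summed to 6.9 to 21.2 CPM in the oil libraries, 62.5 to 79.5 CPM in Tom- CCl4 and 47.1 to 93.6 CPM in Tom+ CCl4. Of these 7 genes, 6 were called higher in Tom- and 5 in Tom+, and 7 of 7 had a positive log2FC in both. Among all genes, 7.92% were called in Tom- and 5.24% in Tom+, in either direction. An unadjusted p under 0.05 was seen for 31.5% of all genes in Tom- and 24.4% in Tom+. Kupffer cell and macrophage markers (7 genes, among them Clec4f and Adgre1, none at 0) summed to 11.8 to 78.5 CPM in oil, 57.9 to 78.9 CPM in Tom- CCl4 and 34.5 to 83.8 CPM in Tom+ CCl4, and none of the 7 was called by edgeR in either fraction or had an unadjusted p under 0.05, while 7 of 7 had a positive log2FC in both. Endothelial cell markers (6 genes, among them Kdr and Stab2, none at 0) summed to 82.3 to 154 CPM in oil, 210.5 to 230.3 CPM in Tom- CCl4 and 110.5 to 148.7 CPM in Tom+ CCl4, and 6 of 6 rose in Tom-, while in Tom+ none of 6 was called by edgeR or had an unadjusted p under 0.05. Cholangiocyte markers (6 genes) summed to 5.25 to 7.38 CPM in oil, 8.47 to 12.9 CPM in Tom- CCl4 and 8.9 to 17.95 CPM in Tom+ CCl4, with Krt19, Krt7, Epcam and Cftr at 0 in 7 to 10 of the 12 libraries. Of the 2 cholangiocyte markers that passed the filter, Spp1 rose in Tom+ (log2FC 1.23 ± 0.33, edgeR adjusted p = 0.0334) and Sox9 was not called, and in Tom- neither was called by edgeR while both had an unadjusted p under 0.05. Lymphocyte markers (5 genes) summed to at most 0.338 CPM, with each of the 5 at 0 in 5 or more libraries. The part of these cells in the Cd63 and Cd9 levels was not tested.

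**Figure D2:**
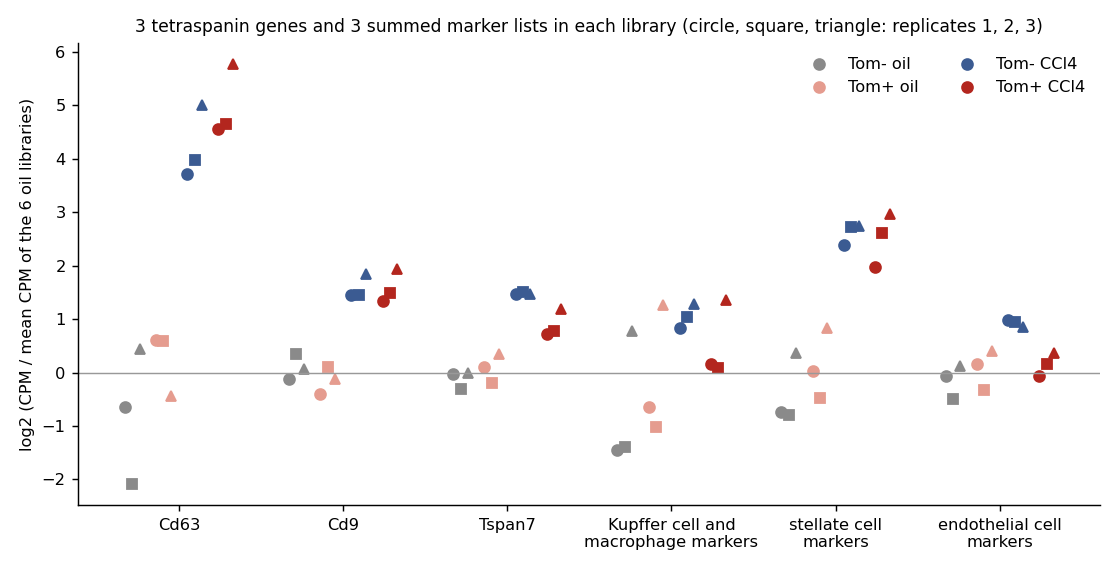
Log2 of each library's CPM over the mean CPM of the 6 oil libraries for Cd63, Cd9, Tspan7 and 3 summed marker lists, coloured by group, with circle, square and triangle for replicates 1, 2 and 3. Stellate cell markers rose in both fractions as Cd63, Cd9 and Tspan7 did, and endothelial cell markers lay above the oil libraries in the 3 Tom- CCl4 libraries and not in the Tom+ CCl4 libraries.

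The 6 other genes tested moved little with CCl4. Cd81, at 189.2, 211.6 and 211.5 CPM in Tom- oil, was at 244.2, 261.0 and 219.4 CPM in Tom- CCl4, a log2FC of 0.24 ± 0.10 that was not called. In Tom+ it was at 173.3, 215.0 and 193.1 CPM in oil and at 191.7, 189.2 and 186.8 CPM in CCl4, a log2FC of -0.04 ± 0.10. Cd151 behaved alike in size, with 29.4 to 33.6 CPM in Tom- oil, 36.1 to 38.2 CPM in Tom- CCl4 and a log2FC of 0.24 ± 0.09, and with a log2FC of -0.05 ± 0.09 in Tom+. Cd82 had a log2FC of 0.11 ± 0.11 in Tom- and 0.06 ± 0.11 in Tom+. These 3 genes, which code for surface tetraspanins that associate with integrins and immunoglobulin-like partners, thus stayed well under the fold threshold.

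Tspan4 was at 30.6, 28.1 and 38.0 CPM in Tom- oil and at 49.5, 37.3 and 54.8 CPM in Tom- CCl4, so 1 CCl4 library lay below the highest oil library. In Tom+ it was at 28.1, 30.5 and 35.9 CPM in oil and at 39.5, 35.8 and 55.3 CPM in CCl4. Its log2FC was 0.55 ± 0.18 in Tom- and 0.47 ± 0.18 in Tom+, under the fold threshold in both. Tspan31 was at 234.6 to 243.7 CPM in Tom- oil and 197.7 to 235.0 CPM in Tom- CCl4 (log2FC -0.12 ± 0.09), and at 224.9 to 240.3 CPM in Tom+ oil and 180.5 to 201.5 CPM in Tom+ CCl4 (log2FC -0.28 ± 0.09). The 3 Tom+ CCl4 libraries lay below the 3 Tom+ oil libraries for Tspan31 in CPM, but overlapped them in TPM. In Tom- it was the other way round, with overlap in CPM and with 190.1 to 238.8 TPM in CCl4 below 249.8 to 268.7 TPM in oil. Tspan3, a low gene with 40 to 87 counts a library, had a log2FC of -0.03 ± 0.31 in Tom- and -0.28 ± 0.31 in Tom+.

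Overlapping genes bear on some of these levels. The libraries are strand-specific per the labels, but the counting is not stated to use strand, so reads of opposite-strand partners could be shared. Tspan31 overlaps Cdk4, which had 3492 to 6605 counts against 8500 to 16387 for Tspan31, and 26.5% of the 50-base words of Tspan31 transcripts occurred in Cdk4 transcripts on the opposite strand. Tspan4 overlaps Chid1 (1335 to 2586 counts), with 10.9% of its words shared, and Cd9 overlaps Gm26728 (17 to 188 counts), with 8.48%. Levels of Tspan31 and Tspan4 are uncertain to that extent.

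**Figure D3:**
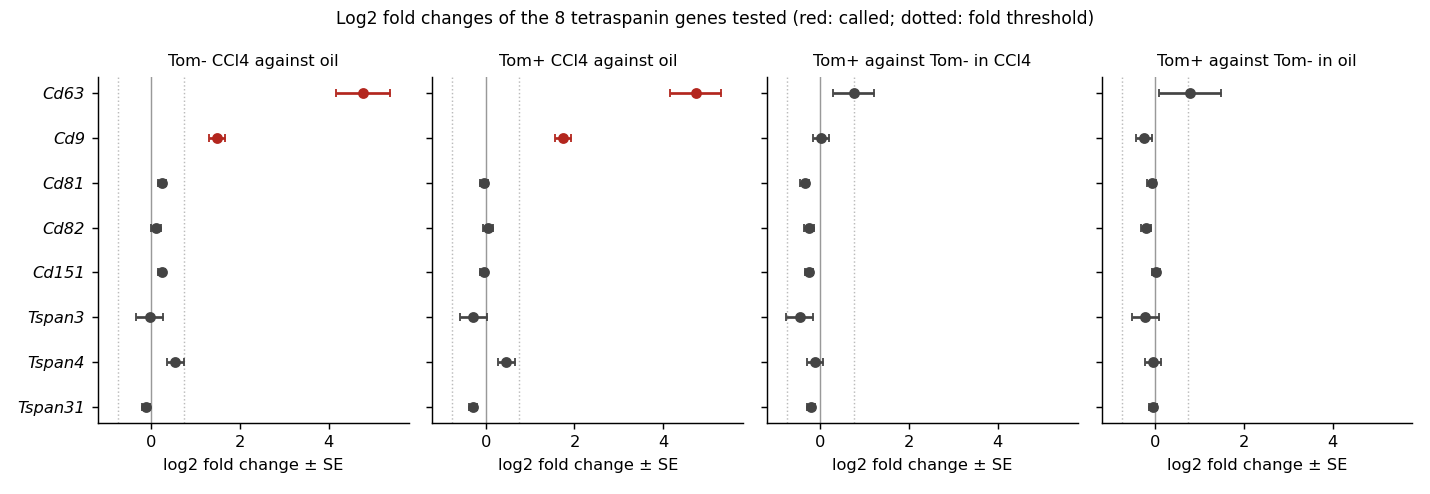
Log2 fold change ± SE of the 8 tetraspanin genes tested in 4 comparisons, with called genes in red and dotted lines at the fold threshold of 0.75 in either direction. Only Cd63 and Cd9 are called, in CCl4 against oil in both fractions, and no gene is called between Tom+ and Tom- in this fit.

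To compare p16-marked with unmarked hepatocytes, Tom+ and Tom- libraries were compared within each treatment. In CCl4, none of the 8 genes tested was called by edgeR, beside 1.96% of all genes, and none by DESeq2 or limma-voom. An unadjusted p under 0.05 was seen for 4 of the 8, each lower in Tom+, and for 22.8% of all genes. In oil, none of the 8 was called by any of the 3 tools, beside 0% of all genes by edgeR, and none had an unadjusted p under 0.05, beside 7% of all genes. The libraries of the same number deviated together within each treatment, so a fit with the replicate number as a block is given where it changes a call. With that block, Cd63 was called higher in Tom+ than in Tom- in CCl4, with a log2FC of 0.76 ± 0.24, where 3.98% of all genes were called. The Cd63 call passed both thresholds only narrowly. Without the block its log2FC was 0.75 ± 0.46, and leaving out a library moved that value between 0.25 (without Tom+ CCl4 replicate 3) and 1.26 (without Tom- CCl4 replicate 3). With the block, Cd81, Cd82, Cd151 and Tspan31 were lower in Tom+ and met the adjusted p threshold. Their log2FCs of -0.35 to -0.20 stayed under the fold threshold. The share of all genes meeting the adjusted p alone was not computed for the blocked fit.

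The Tom+ to Tom- ratio of Cd63 CPM in CCl4 was 1.8, 1.59 and 1.7 for the libraries numbered 1, 2 and 3. Cd63 was thus higher in the Tom+ library of 3 of 3 numbers, although the groups overlapped because both libraries numbered 3 were high. In oil the same ratio was 2.4, 6.4 and 0.545, from counts of 4 to 35, and it had no common direction. The numbers were paired from these data, and the share of all genes with 1 direction in 3 of 3 numbers was not computed. The difference between fractions in the effect of CCl4 on Cd63 (interaction) was a log2FC of -0.04 ± 0.72, and none of the 8 genes was called for it, beside 1.17% of all genes. By edgeR 1 of the 8 genes had an unadjusted p under 0.05 for the interaction, beside 18.6% of all genes, and neither DESeq2 nor limma-voom called any. The Kupffer cell and macrophage sums for the numbers 1, 2 and 3 were 57.9, 66.9 and 78.9 CPM in Tom- CCl4 and 36.5, 34.5 and 83.8 CPM in Tom+ CCl4. The stellate cell sums for the numbers 1, 2 and 3 were 62.5, 78.8 and 79.5 CPM in Tom- CCl4 and 47.1, 72.7 and 93.6 CPM in Tom+ CCl4. The part of these cells in the Cd63 difference between the fractions was not tested.

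For Cd81, Cd82 and Cd151 the order between the fractions in CCl4 depended on the scale. Normalized by TMM, their CPM were lower in the 3 Tom+ CCl4 libraries than in the 3 Tom- CCl4 libraries without overlap, which was so, in either direction, for 28.7% of all genes. Cd81 was at 219.4 to 261.0 CPM in Tom- and at 186.8 to 191.7 CPM in Tom+ (log2FC -0.35 ± 0.10), Cd151 at 36.1 to 38.2 and 29.3 to 33.0 CPM (-0.25 ± 0.09), and Cd82 at 59.8 to 68.0 and 50.3 to 57.7 CPM (-0.25 ± 0.11). In TPM each of the 3 overlapped, for Cd151 with 29.4 to 29.7 TPM in Tom- and 28.1 to 29.7 TPM in Tom+. With no scaling factor the median log2FC of all genes moved from 0.00 to 0.15 in this comparison, and the log2FC was then -0.21 for Cd81 and -0.11 for Cd151 and Cd82, each below that median. That scaling was chosen after seeing the data. In oil none of the 8 genes was without overlap between the fractions, beside 11.7% of all genes.

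**Figure D4:**
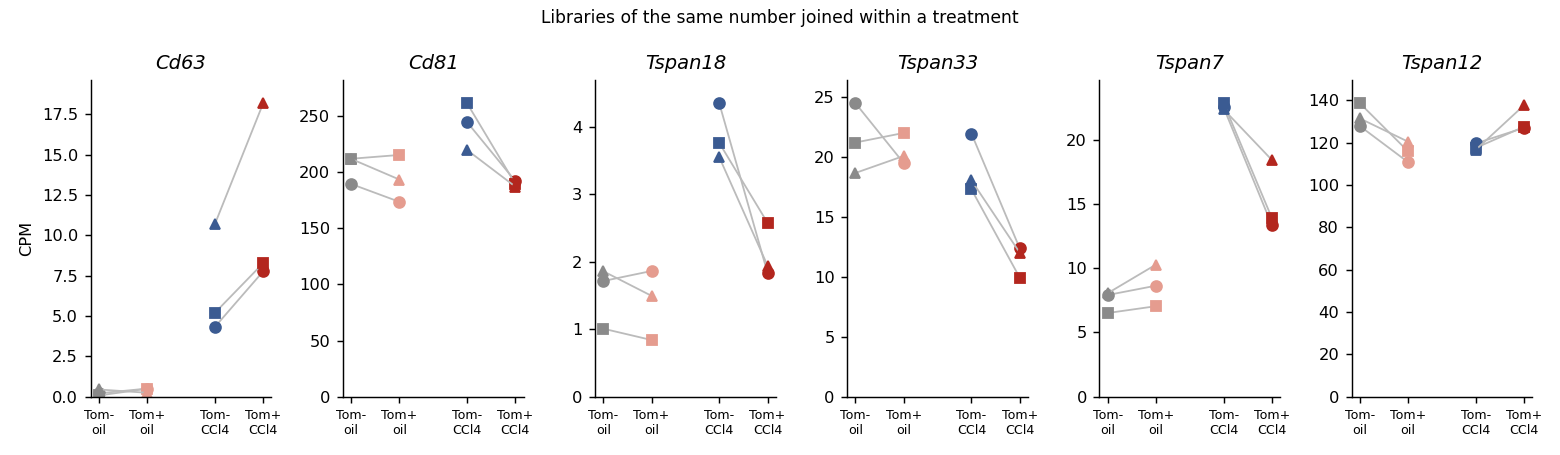
CPM of Cd63, Cd81, Tspan18, Tspan33, Tspan7 and Tspan12 in each library, with lines joining the Tom- and Tom+ libraries of the same number within oil and within CCl4 (circle, square and triangle for numbers 1, 2 and 3). In CCl4 the Tom+ library was higher for Cd63 and Tspan12 and lower for Cd81, Tspan18, Tspan33 and Tspan7 in 3 of 3 numbers.

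The rest of the family was examined by the same fit. Of the 22 other genes, 14 passed the filter, 3 rose with CCl4 in Tom- and none fell, and in Tom+ 1 rose and 1 fell. Of all genes, 7.92% were called in Tom- and 5.24% in Tom+, in either direction. Tspan7, known from endothelial cells and neurons, rose in both fractions. It was at 6.51 to 8.05 CPM in Tom- oil and 22.4 to 22.8 CPM in Tom- CCl4 (log2FC 1.59 ± 0.16, edgeR adjusted p = 5.6e-05), and at 7.04 to 10.3 CPM in Tom+ oil and 13.3 to 18.4 CPM in Tom+ CCl4 (log2FC 0.81 ± 0.15, adjusted p = 0.0055). The Tom+ call was lost, under the fold threshold, without the 2 doubtful oil libraries (log2FC 0.69), without the library labelled Tom+ oil replicate 2 alone (0.69) and without Tom+ CCl4 replicate 3 (0.66). Tspan18, an endothelial tetraspanin that binds calcium channels, was at 1.01 to 1.86 CPM in Tom- oil and 3.55 to 4.35 CPM in Tom- CCl4 (log2FC 1.35 ± 0.30, adjusted p = 0.00959), and Tspan2 at 0.465 to 1.06 and 1.6 to 2.07 CPM (1.15 ± 0.33, adjusted p = 0.0286). The Tspan2 call was lost without Tom- oil replicate 2, Tom- CCl4 replicate 2 or Tom- CCl4 replicate 3, with an adjusted p of up to 0.0984. The 6 endothelial cell markers rose in the same comparison, as given above, and their part in the Tspan7, Tspan18 and Tspan2 levels was not tested.

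Tspan33, which binds the protease ADAM10, was the 1 family gene called lower in CCl4, in Tom+. It was at 19.5 to 22.0 CPM in Tom+ oil and 9.93 to 12.4 CPM in Tom+ CCl4 (log2FC -0.84 ± 0.13, adjusted p = 0.00147), whereas Tom- went from 18.7 to 24.5 CPM in oil to 17.3 to 22.0 CPM in CCl4 (-0.17 ± 0.13, adjusted p = 0.4). Averaged over both fractions, CCl4 against oil gave a log2FC of -0.50, under the fold threshold. Between Tom+ and Tom- in CCl4 its log2FC was -0.74 ± 0.13 (adjusted p = 0.00847), just inside the fold threshold, and it passed with upper-quartile scaling, with at least 10 counts in every library, and without Tom- CCl4 replicate 2 or 3 or Tom+ CCl4 replicate 1 or 3. The periportal genes Sds (198.0 to 300.3 CPM in Tom- CCl4, 72.9 to 124.8 CPM in Tom+ CCl4) and Hal (284.1 to 435.9 and 138.0 to 282.8 CPM) were also lower in Tom+ without overlap. The pericentral genes Glul (84.4 to 223.3 and 223.9 to 467.6 CPM) and Lgr5 (2.07 to 7.14 and 10.02 to 14.93 CPM) were higher in Tom+ without overlap. Of the other zone genes read, Cyp2e1 was higher and Cyp2f2 lower in Tom+ without overlap. Cyp1a2 overlapped (235.9 to 574.8 and 402.6 to 917.7 CPM). Of all genes, 28.7% did not overlap in this comparison, in either direction. Of these 7 zone genes, 2 were called by edgeR, each lower in Tom+ and Sds among them, beside 1.96% of all genes. The part of the zone of origin in the Tspan33 difference was not tested.

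None of the 14 genes was called by edgeR between Tom+ and Tom- in CCl4, beside 1.96% of all genes. DESeq2 and limma-voom each called 1 (Tspan18, lower in Tom+), beside 3.38% and 2.35% of all genes. An unadjusted p under 0.05 was seen for 4 of the 14, each lower in Tom+, and for 22.8% of all genes. With the replicate block edgeR also called Tspan18, with a log2FC of -0.89 ± 0.21 (adjusted p = 0.011), where 3.98% of all genes were called. Of the 6 endothelial cell markers, 4 were called lower in Tom+ by edgeR without the block, beside 1.96% of all genes in either direction. The part of endothelial cells in the Tspan18 and Tspan7 values was not tested. In oil none of the 14 was called by any of these tools, beside 0% of all genes by edgeR. There 1 (Tspan12) had an unadjusted p under 0.05, beside 7% of all genes. For the interaction edgeR and limma-voom called none of the 14, beside 1.17% and 1.06% of all genes. DESeq2 called 1 (Tspan7), beside 3.85% of all genes. By edgeR an unadjusted p under 0.05 for the interaction was seen for 4 of the 14, beside 18.6% of all genes. With the block edgeR called Tspan7 for the interaction too, where 5.48% of all genes were called.

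Tspan12, a co-receptor of Frizzled signalling, was not called in any of these comparisons, with or without the block. Tspan12 averaged 89.16 TPM over the 12 libraries and was thus the family gene with the third highest level, after Tspan31 and Cd81. It was at 127.9 to 138.7 CPM in Tom- oil and 110.8 to 120.5 CPM in Tom+ oil, but at 116.7 to 119.7 CPM in Tom- CCl4 and 127.1 to 137.8 CPM in Tom+ CCl4. Tspan14 (23.46 TPM) and Tspan9 (19.37 TPM) had log2FCs between -0.23 and 0.25 in the 4 comparisons. Rom1, at 2.06 to 4.78 CPM, was not called in any comparison.

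**Figure D5:**
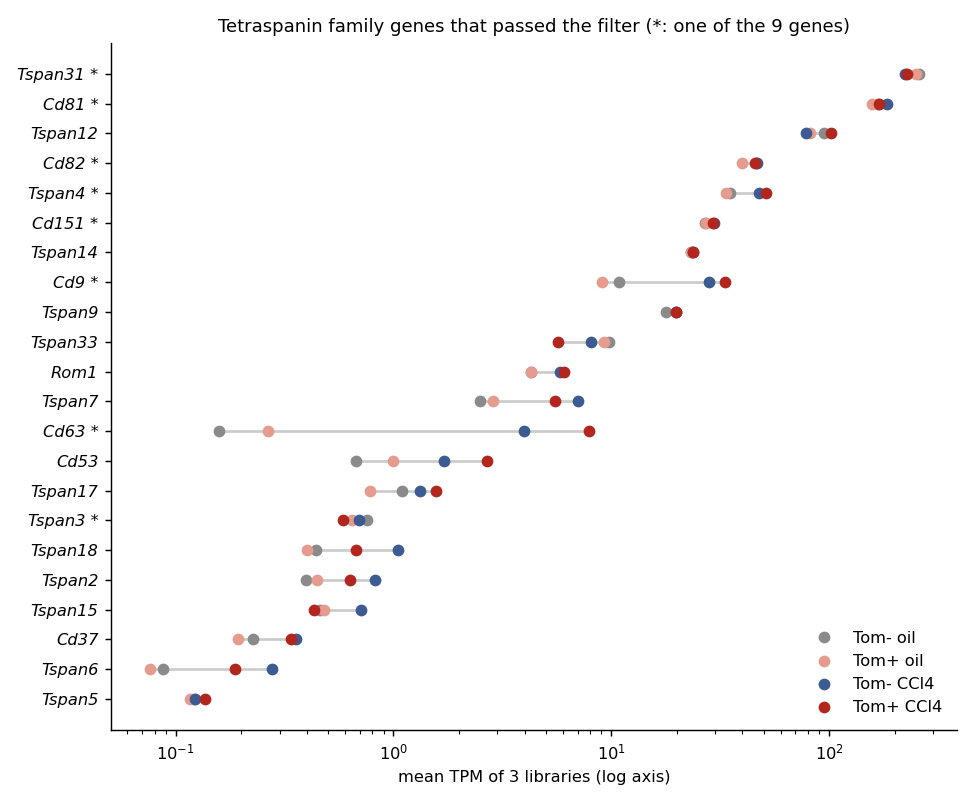
Mean TPM of 3 libraries in each group on a log axis for the 22 tetraspanin family genes that passed the filter, ordered by their mean over 12 libraries, with the 9 chosen genes starred (Tspan8 did not pass). Cd63 has the widest spread between groups, from 0.158 TPM in Tom- oil to 7.9 TPM in Tom+ CCl4, and Tspan31 and Cd81 have the highest levels in each group.

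Genes that act with tetraspanins were read from a list of binding partners and a list of vesicle formation genes. Among all genes, 7.92% were called with CCl4 in Tom- and 5.24% in Tom+, in either direction. Of 13 partner genes tested, 2 rose with CCl4 in Tom-. These were Igsf8, which binds CD9 and CD81 directly (5.43 to 8.95 CPM in oil, 15.4 to 18.5 CPM in CCl4, log2FC 1.19 ± 0.20, adjusted p = 0.00201), and Itga6, a laminin receptor chain that CD151 binds (6.32 to 8.44 CPM in oil, 10.8 to 17.5 CPM in CCl4, log2FC 1.02 ± 0.21, adjusted p = 0.00651). In Tom+ none of the 13 was called, and 4 had an unadjusted p under 0.05, beside 24.4% of all genes. Igsf8 had a log2FC of 0.72 ± 0.19 in Tom+, just under the fold threshold. The 18 vesicle features tested counted Hgs under 2 gene identifiers at 1 locus. Of these 18, 2 rose in Tom- and 1 in Tom+. Chmp4c, an ESCRT-III subunit, rose in both, from 2.23 to 2.8 CPM in oil to 2.88 to 5.83 CPM in CCl4 in Tom- (log2FC 0.82 ± 0.23, adjusted p = 0.026) and from 3.09 to 3.7 CPM to 5.85 to 7.14 CPM in Tom+ (0.91 ± 0.22, adjusted p = 0.0197). Rab27a, a GTPase of vesicle secretion, rose in Tom- (0.98 ± 0.26, adjusted p = 0.0225) from 0.62 to 1.17 CPM to 1.62 to 1.92 CPM. The median log2FC of the 18 vesicle features was -0.10 in Tom- and 0.01 in Tom+, beside 0.005 and 0.002 for all genes. In Tom-, 13 of the 18 had a negative log2FC. By edgeR 8 had an unadjusted p under 0.05 in Tom-, 3 of them higher in CCl4, beside 31.5% of all genes. In Tom+ 8 of the 18 were negative, and 5 had such a p, 4 of them higher, beside 24.4% of all genes. Between Tom+ and Tom- no gene of the 2 lists was called by edgeR in CCl4 or in oil. In CCl4, an unadjusted p under 0.05 was seen for 3 partner genes, each lower in Tom+, and 8 vesicle genes, 7 of them higher. Of all genes, 22.8% had such a p in CCl4. In oil no list gene had one, beside 7% of all genes. The median log2FC in CCl4 was 0.15 for the vesicle features and -0.21 for the partner genes, beside 0.00 for all genes. With the block the 1 list gene called was Cd36, a fatty acid receptor, lower in Tom+ in oil (log2FC -0.83 ± 0.10, adjusted p = 0.00142), a direction that rests on the oil labels.

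The 9 genes lie on 5 chromosomes. Cd151 (chr7:141467392-141471473) and Tspan4 (chr7:141475240-141493427) are neighbours on the plus strand of chromosome 7, with 3766 bases between them. Their deviations from the group means were the most alike among pairs of the 8 genes tested, with a Pearson correlation of 0.83 over the 12 libraries, which share depth and any shift in composition. Over the same 12 libraries, the genes whose deviations were most like those of Cd63, among 13060 genes with a mean of at least 1 CPM, were Gm9923, Spats2l and Hddc3, with correlations of 0.92, 0.91 and 0.90. These values describe the libraries, and carry no test.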

How the data were processed

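Poly-A RNA of sorted hepatocytes was sequenced from strand-specific libraries. Per the labels and the methods of the study, reads were filtered with fastp (0.23.2) and aligned to mm10 with HISAT2 (2.1.0); the counter, its strand setting and the annotation release are not given in the sources used here. The authors deposited 1 table of estimated counts per Ensembl gene, not normalized, in which 30.4 to 32.9% of the values above 0 were not whole. Counts were rounded, and symbols were matched to 54723 of 54839 features. Gene positions were those of the deposited table, and 30 of 31 tetraspanin genes had the same position in GENCODE M21 (GRCm38). No genome was used.

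The edgeR (4.0.16, R 4.3.3) quasi-likelihood test was fitted to all 12 libraries with a coefficient per group, TMM factors, filterByExpr and robust estimation, and p-values were adjusted over 17121 genes by Benjamini-Hochberg. The study used DESeq2 (1.42.1), which was run here (1.42.0), with limma-voom (3.58.1), as an alternative. CPM are TMM-normalized, and TPM were computed from rounded counts and the deposited gene lengths. The SE given beside an edgeR log2FC is its size divided by the square root of the F statistic of the quasi-likelihood test. It thus rests on a spread estimated over all 12 libraries. Correlations used log2 CPM with a prior count of 2. The fit was tested on simulated data with independent libraries and large changes. That test does not cover libraries that deviate together or small changes. Depth was 37568584 to 75331424 counts a library.

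The 9 genes, the gene lists and the comparisons were chosen with earlier results of these data known. Genes outside the 9 are named when called in any comparison, among the 5 highest by mean TPM of the family genes outside the 9 or, in the partner and vesicle lists, when called between Tom+ and Tom- in CCl4 or among the 3 largest called changes in Tom- with CCl4. Glul, Lgr5, Cyp2e1, Cyp1a2, Sds, Hal and Cyp2f2 are given beside Tspan33. Cd63-ps and Cd36 were added after their values were seen.

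The replicate numbers in the labels are shared by the groups. Deviations from the group means were compared over 13061 genes. Those of same-numbered Tom+ and Tom- libraries correlated at 0.415 to 0.613 in CCl4 and 0.353 to 0.449 in oil. On this the numbers were taken to pair the fractions, from the data and not from the labels. The means for different numbers, -0.248 and -0.2, are no separate comparison, since deviations cancel out within a group. Same-numbered CCl4 and oil libraries correlated at 0.037 to 0.074 within Tom- and 0.032 to 0.299 within Tom+, and were not taken as pairs. Alternatives were another scaling, another filter, DESeq2, limma-voom, the libraries of a comparison alone, the adjusted p alone, the replicate block, leaving out each library, and leaving out both oil libraries whose reporter went against the label. Scaling by total counts and by the upper quartile were added after seeing the data.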

Additional observations from a re-analysis of the deposited data

Results flagged for a closer look

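For 3 family genes outside the 9, the effect of CCl4 differed between Tom+ and Tom- (interaction) at an adjusted p under 0.05. The fit was edgeR with the replicate block, without the fold threshold, and the share of all genes at that criterion was not computed. With the fold threshold, only Tspan7 of the 3 was called, where 5.48% of all genes were called. For Tspan7 the effect in Tom+ minus that in Tom- was a log2FC of -0.78 ± 0.16 (adjusted p = 0.0085), for Tspan33 -0.68 ± 0.15 (adjusted p = 0.00986) and for Tspan12 0.35 ± 0.09 (adjusted p = 0.0254). Without the block the adjusted p-values by edgeR were 0.0847, 0.0759 and 0.104. Tspan7 was lower in the Tom+ than in the Tom- library of 3 of 3 numbers in CCl4 and higher in 3 of 3 in oil, and Tspan12 was higher in 3 of 3 in CCl4 and lower in 3 of 3 in oil. Tspan33 was lower in 3 of 3 in CCl4 and higher in 2 of 3 in oil. These directions come from the same libraries that gave the flag, so they describe it and are no separate support. The share of all genes with such directions was not computed. The oil part of each value rests on 2 libraries whose reporter went against the label, and the blocked fit was not repeated without them. Groups of 3 libraries were not tested for single libraries far from the rest.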

How the results depend on the processing

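The counts of the 9 genes called with CCl4 (2 in each fraction) held under 17 of 18 alternatives; requiring at least 10 counts in every library removed Cd63 before testing and left 1 in each. Cd63 and Cd9 stayed called in every other setting, with log2FCs of 4.26 to 5.61 and 1.34 to 1.61 in Tom-, and 4.23 to 4.94 and 1.54 to 1.88 in Tom+. Between Tom+ and Tom- in CCl4 the count of the 9 was 0 except for 1 (Cd63) with the replicate block. For the other family genes there, the count of 0 became 2 by adjusted p alone, 1 with DESeq2, limma-voom, edgeR over the 6 libraries, upper-quartile scaling, the 10-count filter or the replicate block, and 0 to 1 when a library was left out. For the interaction it became 1 with DESeq2 or the replicate block, beside 3.85% and 5.48% of all genes. Between Tom+ and Tom- in CCl4, 5.79% of all genes were called by adjusted p alone. In the other settings named for that comparison, 0.437 to 3.98% of all genes were called. For the other genes in Tom+ with CCl4, 2 became 1 without both doubtful oil libraries, 3 (Tspan2, Tspan7 and Tspan18, without Tspan33 at a log2FC of -0.504) when both fractions were averaged, and 1 to 2 when a library was left out (Tspan7 was lost without the library labelled Tom+ oil replicate 2 or Tom+ CCl4 replicate 3). Tspan2 lost its Tom- call over the 6 libraries alone and without Tom- oil replicate 2, Tom- CCl4 replicate 2 or Tom- CCl4 replicate 3 (adjusted p of up to 0.0984). With CCl4 against oil, where the numbers were not taken as pairs, the replicate block left the counts of the 9 at 2 in each fraction and raised that of the other genes in Tom- from 3 to 4 (Cd53 was added). That count of 3 became 2 where the Tspan2 call was lost. No called value reversed. Depth limits Cd63 in oil (4 to 35 counts) and Tspan8.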
